A study of Mus musculus with 6 samples.

Results

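Lactoferrin, transferrin and melanotransferrin form a family of iron-binding proteins, and the genes described here are these relatives together with the main genes of cellular iron uptake, storage, export and control. The 10 genes were taken by name from the 55416 genes of the deposited expression table. They are *Ltf*, *Trf* and *Meltf* for the transferrin family, *Tfrc*, *Steap3* and *Slc11a2* for uptake, *Fth1* and *Ftl1* for storage, *Slc40a1* for export and *Ireb2* for regulation. Each name occurred a single time, and 7 of the 10 reached the mean level needed for a test.

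Transferrin carries ferric iron in the blood, binds the transferrin receptor at the cell surface and releases its iron inside acidified endosomes, where a reductase and a transporter pass it to the cytosol. Iron that is not used is held in ferritin, a shell of heavy and light subunits, and leaves the cell through ferroportin. Iron regulatory proteins bind short hairpins, called iron-responsive elements, in the untranslated regions (UTRs) of several of these transcripts. Bound near the start of a transcript they block its translation, and bound near its end they protect it from decay, so in low iron the receptor is made and ferritin is not. Dividing myoblasts take up iron for DNA synthesis, respiration and, later, myoglobin.

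The study asked how loss of lactoferrin affects satellite cells (SCs), the stem cells of skeletal muscle. SCs were sorted from leg muscle of adult WT and *Ltf*-KO mice as cells without Sca1 and CD11b and with CD34 and α7-integrin, and both genotypes were grown for 4 days on Matrigel without further treatment. The medium into which the sorted cells were collected held fetal bovine serum, chick embryo extract and basic fibroblast growth factor. The *Ltf*-KO mice were made in C57/BL6N zygotes with CRISPR-Cas9 and lack internal exons of *Ltf* in every cell of the body, not in muscle alone. RNA was sequenced from 3 libraries of each genotype, and the labels do not say whether each came from its own animal, so p-values measure the spread between these libraries.

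The deletion was cut with a pair of guide RNAs placed in introns on either side of the removed exons. They are printed because they define the *Ltf*-KO allele, with the last 3 bases, the NGG motif that Cas9 needs beside its target, in capitals.
5 prime guide: atggcatctagggctgcaccAGG
3 prime guide: ctagtgtataccccaaaggcTGG
Both end in GG. Neither guide occurs on either strand in any GENCODE M21 transcript, and neither was placed on the genome here.

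Iron-responsive elements were looked for next, since they are the sequence feature that ties several of the 10 genes together. The motif was C, 5 bases, then CAGTGN, on the sense strand of the protein-coding transcripts of GENCODE M21, whose build is GRCm38, whereas the deposited values were made with GRCm39. The letters alone were found in a UTR of 7 of the 10 genes and in 41.3% of all 21877 genes examined, so they separate little. A further condition, chosen after these matches were seen, asked that at least 4 of the 5 bases after the first C could pair with the 5 bases after the 6-base loop, with G-T pairs allowed. It left 5 of the 10 genes, against 4.91% of all genes.

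The sites that met both conditions are printed as 30 bases each in the sense direction, with the unpaired C and the 6 bases of the loop in capitals.
Fth1-201, bases 84 to 113: ggtttcctgCttcaaCAGTGCttgaacgga
Ftl1-201, bases 75 to 104: tgtgtcttgCttcaaCAGTGTttgaacgga
Slc40a1-201, bases 87 to 116: ttccaacttCagctaCAGTGTtagctaagt
Tfrc-201, bases 3312 to 3341: gataattatCggaagCAGTGCcttccataa
Tfrc-201, bases 3691 to 3720: tcacattatCgggagCAGTGTcttccataa
Tfrc-201, bases 3756 to 3785: tgtctatatCggagaCAGTGAtctccatat
Tfrc-201, bases 3803 to 3832: cgtaattatCgggaaCAGTGTttcccataa
Slc11a2-205, bases 1794 to 1823: gggagccatCagagcCAGTGTgtttctatg
The names are those of the annotated transcripts, and bases are counted from 1 at the transcript's start.

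The ferritin and ferroportin sites lay in the 5′ UTR, at chr19:9982729-9982758 on the plus strand for *Fth1*, chr7:45459781-45459810 on the minus strand for *Ftl1* and chr1:45925467-45925496 on the minus strand for *Slc40a1*, each in exon 1 (GRCm38). The *Tfrc* sites lay in the 3′ UTR within exon 19 on the plus strand of chromosome 16, the first at chr16:32631216-32631245 and the last at chr16:32631707-32631736. The *Slc11a2* site lay in the 3′ UTR of Slc11a2-205, in exon 16 at chr15:100395155-100395184 on the minus strand, and Slc11a2-201 had none that met both conditions. All 5 stem bases could pair in every printed site except that of *Slc11a2*, where 4 could. In 5′ UTRs such sites were found in 0.986% of the 20899 genes that have one, and in 3′ UTRs in 4.02% of 21685 genes. *Trf*, *Ltf*, *Meltf*, *Steap3* and *Ireb2* had no site that met both conditions in either UTR. A match is a description of the letters and their pairing and does not show that a protein binds there. The table gives 1 value per gene, so the Slc11a2 transcripts with and without the site could not be told apart.

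**Figure D1:**
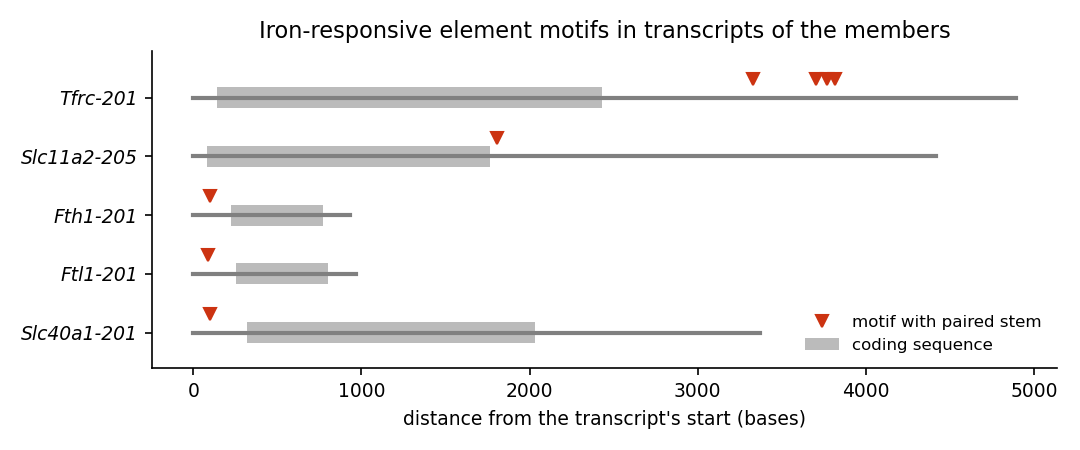
Transcripts of *Tfrc*, *Slc11a2*, *Fth1*, *Ftl1* and *Slc40a1* drawn to scale by distance from the transcript's start in bases. The grey line is the transcript, the grey box the coding sequence, and each triangle is a printed site, with 1 each before the coding sequence of *Fth1*, *Ftl1* and *Slc40a1*, 4 after that of *Tfrc* and 1 after that of *Slc11a2*.

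Expression is given as TPM, the share of a library's transcripts that a gene takes, corrected for gene length and scaled to a like total in each library, so that levels of different genes can be set side by side. *Ltf* (ENSMUSG00000032496), the deleted gene, codes for lactoferrin, which neutrophils store in granules and glands secrete. It was at 0.12, 0.02 and 0.02 TPM in WT replicates 1 to 3 and at 0.02, 0.03 and 0 TPM in *Ltf*-KO replicates 1 to 3. The groups overlapped, both sat near the floor, and the value is for the whole gene, so it does not check the genotype labels in these cultures.

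Since *Ltf* is a neutrophil gene, markers of that cell type are given beside it. The 8 neutrophil markers summed to 3.40, 1.13 and 3.53 TPM in the WT libraries and to 1.09, 4.10 and 1.81 TPM in the *Ltf*-KO libraries. *S100a9* was the most abundant at a mean of 1.24 TPM, 7 of the 8 were under 1 TPM, and none was at 0 in all libraries. In WT replicate 1, where *Ltf* was highest, *S100a8* at 1.54 TPM and *Ngp* at 0.24 TPM were also highest. The other neutrophil markers were highest in other libraries. A sum of 8 macrophage markers, given below, was highest in WT replicate 1 too, at 18.1 TPM, with *Lyz2* at 7.22 TPM. In bulk RNA, fewer cells of a type and less RNA per cell cannot be told apart. The part of myeloid cells in the *Ltf* values was not tested.

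*Trf* (ENSMUSG00000032554) codes for transferrin, which the liver makes for the blood. It was at 1.52, 1.89 and 1.93 TPM in WT and at 2.80, 1.98 and 1.76 TPM in *Ltf*-KO SCs. *Ltf*-KO replicate 1 was the highest and the other libraries lay close together, with overlapping groups. Differences between genotypes were estimated with limma, a linear model fitted to log2(TPM + 1) of all genes that borrows the spread of a gene from genes of like level. Its log2 fold change is *Ltf*-KO minus WT on that scale, which understates the change of low genes, and its adjusted p is corrected over all genes tested by the Benjamini-Hochberg method. For *Trf* the log2 fold change was 0.18 (standard error 0.16, 95% confidence interval -0.21 to 0.58, limma adjusted p = 0.999), and without *Ltf*-KO replicate 1 it was 0.048. *Alb*, the most abundant of 4 hepatocyte markers, was at 5.17, 4.85 and 4.04 TPM in WT and at 3.88, 4.77 and 5.61 TPM in *Ltf*-KO SCs. It was lowest in *Ltf*-KO replicate 1, the library where *Trf* was highest. The part of hepatocyte RNA in the *Trf* values was not tested.

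*Meltf* (ENSMUSG00000022780), the membrane-anchored relative, was at 0.03, 0.02 and 0 TPM in WT and at 0.01, 0 and 0 TPM in *Ltf*-KO SCs. Of the transferrin family, *Trf* alone reached a mean of 1 TPM over the 6 libraries, the level a gene needed to be tested. *Ltf* and *Meltf* were therefore not tested.

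*Tfrc* (ENSMUSG00000022797), the transferrin receptor, was at 144, 157 and 158 TPM in WT SCs. In *Ltf*-KO SCs it was at 156, 145 and 151 TPM. WT replicate 1 and *Ltf*-KO replicate 2 were the lowest and all *Ltf*-KO values lay within the range of WT. The log2 fold change was -0.024 (standard error 0.051, 95% confidence interval -0.15 to 0.097, limma adjusted p = 0.999). Over the 6 libraries the coefficient of variation (SD as a percentage of the mean) was 4.15%, beside a median of 4.14% for the 1407 tested genes within 2-fold of its level.

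*Steap3* (ENSMUSG00000026389), the endosomal reductase that turns ferric into ferrous iron, was at 17.0, 18.1 and 19.4 TPM in WT SCs. It was at 16.9, 19.8 and 16.9 TPM in *Ltf*-KO SCs. The groups overlapped, and the highest libraries were *Ltf*-KO replicate 2 and WT replicate 3. For *Steap3* the log2 fold change was -0.028 (standard error 0.083, 95% confidence interval -0.23 to 0.17, limma adjusted p = 0.999).

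*Slc11a2* (ENSMUSG00000023030), which codes for DMT1, the transporter that moves ferrous iron out of the endosome, was at 23.0, 23.4 and 22.0 TPM in WT SCs. It was at 24.1, 24.4 and 24.7 TPM in *Ltf*-KO SCs, so every *Ltf*-KO library was above every WT library. The gap was small, with means of 22.8 ± 0.731 TPM (SD, n = 3) and 24.4 ± 0.286 TPM (SD, n = 3). The log2 fold change was 0.094 (standard error 0.047, 95% confidence interval -0.018 to 0.21), with an unadjusted p of 0.0872 and an adjusted p of 0.999 from limma. *Slc11a2* was the 1 gene of the 7 tested whose groups did not overlap, while 1096 of all 12956 genes tested (8.46%) had groups that did not overlap and 613 (4.73%) were so with *Ltf*-KO higher.

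**Figure D2:**
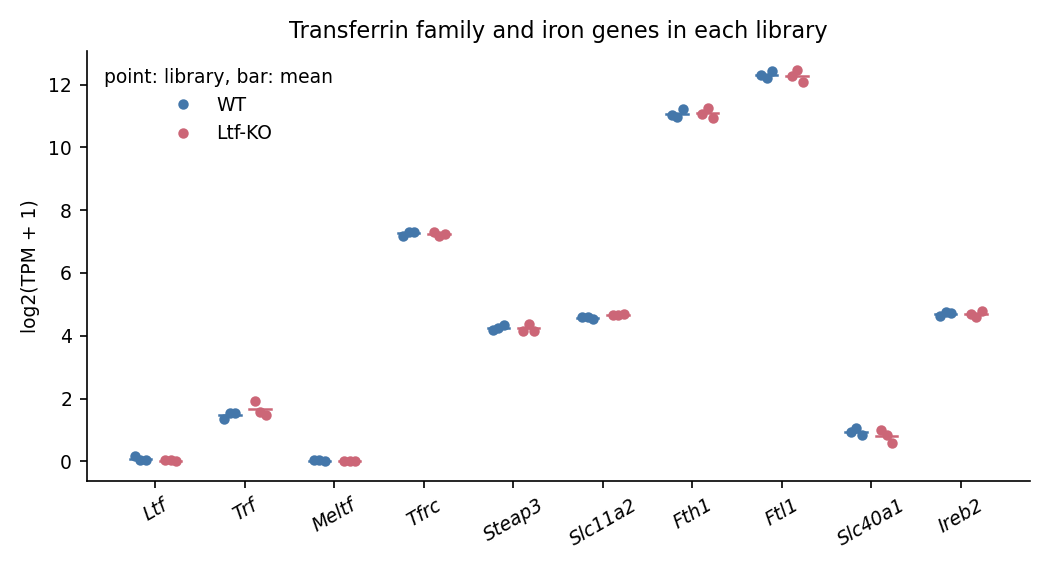
Level of each of the 10 genes as log2(TPM + 1) on the vertical axis, with 1 point per library, WT in blue and *Ltf*-KO in red, and a bar at each group's mean. The ferritin genes stood at the top, *Ltf* and *Meltf* near 0, and the groups overlapped for every gene except *Slc11a2*.

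*Fth1* (ENSMUSG00000024661), the ferritin heavy subunit, which oxidises the iron that enters the shell, was at 2079, 2016 and 2381 TPM in WT SCs. It was at 2159, 2445 and 1966 TPM in *Ltf*-KO SCs. WT replicate 3 and *Ltf*-KO replicate 2 were the highest, *Ltf*-KO replicate 3 was the lowest, and the groups overlapped. For *Fth1* the log2 fold change was 0.019 (standard error 0.094, 95% confidence interval -0.21 to 0.24, limma adjusted p = 0.999).

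*Ftl1* (ENSMUSG00000050708), the light subunit, which helps the mineral core form, was at 5053, 4693 and 5512 TPM in WT SCs. It was at 4913, 5606 and 4361 TPM in *Ltf*-KO SCs, again highest in WT replicate 3 and *Ltf*-KO replicate 2 and lowest in *Ltf*-KO replicate 3. For *Ftl1* the log2 fold change was -0.041 (standard error 0.099, 95% confidence interval -0.28 to 0.20, limma adjusted p = 0.999). Ferritin genes have many near-identical processed copies, which can take reads from each other. Of the copies in the table, *Ftl1-ps1* was at 3.29 to 6.22 TPM and *Ftl2-ps* at 1.33 to 3.75 TPM, *Fth-ps2* reached 0.23 TPM and the others were at 0 in all libraries, so the copies held little of the signal as it was assigned.

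The ferritin genes varied between libraries more than most genes of their level. The coefficient of variation over the 6 libraries was 9.05% for *Fth1*, where the 110 tested genes within 2-fold of its level had a median of 2.81%, and 97.3% of them had a smaller value. For *Ftl1* it was 9.51%, where the 50 genes at a like level had a median of 3.10%. This spread lay within both genotypes rather than between them.

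*Hmox1*, the heme oxygenase that frees iron from heme and the most abundant gene of the heme list, spread over the same libraries. It was at 232, 223 and 360 TPM in WT SCs and at 270, 399 and 188 TPM in *Ltf*-KO SCs. As with the ferritin genes, *Ltf*-KO replicate 2 and WT replicate 3 were the highest and *Ltf*-KO replicate 3 the lowest. Its log2 fold change between genotypes was 0.039 (standard error 0.30, 95% confidence interval -0.68 to 0.76, limma adjusted p = 0.999). *Slc48a1*, which codes for a heme transporter, was at 24.3, 26.4 and 29.0 TPM in WT SCs and at 24.3, 31.3 and 20.99 TPM in *Ltf*-KO SCs, with the same highest and lowest libraries. *Blvrb*, a biliverdin reductase that acts after heme oxygenase, was at 19.3, 17.0 and 21.9 TPM in WT SCs and at 17.6, 21.6 and 16.7 TPM in *Ltf*-KO SCs. *Slc48a1* and *Blvrb* were singled out after their values were seen.

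Of the 7 genes tested, 3 (*Steap3*, *Fth1* and *Ftl1*) had WT replicate 3 and *Ltf*-KO replicate 2 as their highest libraries. So did 12 of 68 further iron genes (17.6%), among them *Alas1*, *Aco1* and *Glrx5*, and 1365 of all genes tested (10.5%). This pattern was chosen after the ferritin values were seen, and it is a description of the libraries with no test.

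Cell type markers that moved with these libraries are given beside the ferritin values, and were picked with their values in view. Other lists did not follow in WT. The erythroid sum was lowest of all in WT replicate 3, at 23.8 TPM. The macrophage and hepatocyte sums were lowest there within WT, at 12.2 and 5.41 TPM. Within *Ltf*-KO, replicate 2 was highest for the erythroid and macrophage sums and not for the hepatocyte sum. The 5 Schwann cell markers summed to 14.1, 18.2 and 26.1 TPM in the WT libraries and to 20.7, 23.2 and 16.4 TPM in the *Ltf*-KO libraries. The 6 endothelial markers summed to 9.96, 7.54 and 17.9 TPM in WT and to 13.5, 15.5 and 7.45 TPM in *Ltf*-KO libraries, with *Cdh5* the most abundant at 3.26 TPM. Both sums were highest in WT replicate 3 and *Ltf*-KO replicate 2, as was the neutrophil sum given above, and no marker of these lists was at 0 in all libraries. Within each genotype these were also the highest libraries for the pericyte sum, at 36.7 and 43.5 TPM, and for the fibroblast genes *Dcn*, *Col1a1*, *Pdgfra* and *Lum*. *Dcn* was at 2.04, 2.89 and 5.24 TPM in WT and at 5.71, 6.83 and 2.82 TPM in *Ltf*-KO libraries. The fibroblast genes *Col3a1*, *Ly6a* and *Dpt* did not follow this order. The endothelial genes *Tek*, *Emcn* and *Vwf* and the Schwann gene *Mbp* did not follow their sums in having these as the highest libraries. The methods give the sorted cells as without CD11b, which neutrophils carry, and without Sca1, which muscle endothelial cells carry. The stains they name are for CD31, an endothelial protein, CD45, Sca1 and α7-integrin. They name no stain for CD11b or CD34, so the named stains and the stated gate differ.

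The markers of myogenic differentiation ran the other way as a sum. Their 6 genes summed to 1646, 2075 and 1583 TPM in the WT libraries and to 1808, 1607 and 2426 TPM in the *Ltf*-KO libraries, lowest in WT replicate 3 and *Ltf*-KO replicate 2 and highest in *Ltf*-KO replicate 3. *Acta1*, muscle actin, was the most abundant at a mean of 977 TPM, and none was at 0 in all libraries. Not every member followed the sum. Within WT, *Acta1* at 844 TPM and *Ckm* at 4.23 TPM were lowest in replicate 1, and *Ckm* was highest in replicate 3 at 5.53 TPM. The part of other cells or of differentiation in the ferritin and *Hmox1* values was not tested.

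**Figure D3:**
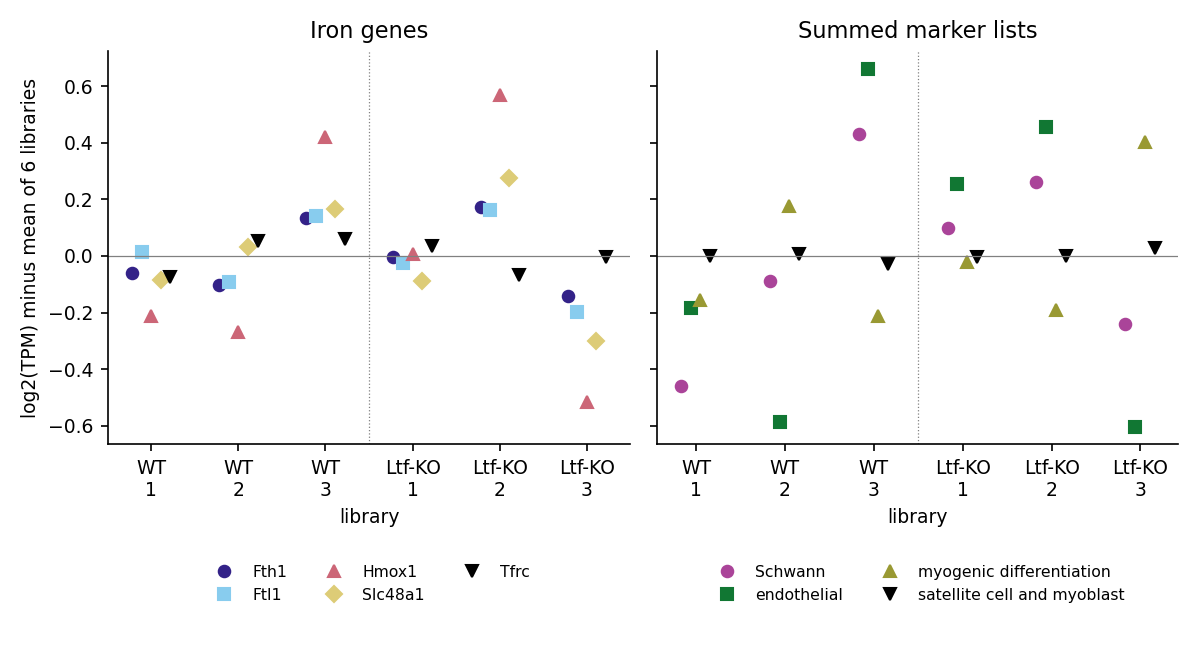
Deviation of each gene (left) and of each summed marker list (right) from its own mean over the 6 libraries, in log2 TPM, with the libraries on the horizontal axis. *Fth1*, *Ftl1*, *Hmox1* and *Slc48a1* lay highest in WT replicate 3 and *Ltf*-KO replicate 2, as did the Schwann and endothelial sums, while the differentiation sum was lowest there and *Tfrc* and the satellite cell sum lay near 0.

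The balance of uptake and storage within a library was read from the ratio of *Tfrc* to *Fth1* plus *Ftl1*, which does not depend on how libraries are scaled. Its log2 was -5.63, -5.41 and -5.64 in WT SCs and -5.50, -5.80 and -5.39 in *Ltf*-KO SCs. Ferritin transcripts thus outnumbered those of the receptor by between 41.8-fold and 55.6-fold. The groups overlapped, with means of -5.56 ± 0.13 and -5.56 ± 0.21 (SD, n = 3 each), and the difference was -0.0016 (two-sided exact permutation p = 1). Its sign turned with the library left out, from -0.0902 without *Ltf*-KO replicate 3 to 0.12 without *Ltf*-KO replicate 2.

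The ratio of *Fth1* to *Ftl1* varied less, although both genes varied between libraries. Its log2 was -1.28, -1.22 and -1.21 in WT SCs and -1.19, -1.20 and -1.15 in *Ltf*-KO SCs. Every *Ltf*-KO library was above every WT library, with means of -1.24 ± 0.038 in WT and -1.18 ± 0.025 in *Ltf*-KO SCs (SD, n = 3 each). The difference was 0.059, for which the two-sided exact permutation p was 0.1, the smallest that 3 libraries against 3 allow, so this design could not reach 0.05. The difference was 0.037 without WT replicate 1 (exact permutation p = 0.2) and 0.045 without *Ltf*-KO replicate 3 (exact permutation p = 0.3). In plain terms *Ftl1* stood at 2.43, 2.33 and 2.32 times *Fth1* in WT and at 2.28, 2.29 and 2.22 times in *Ltf*-KO SCs. With the ferritin copies added to either side, the difference was also 0.059.

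**Figure D4:**
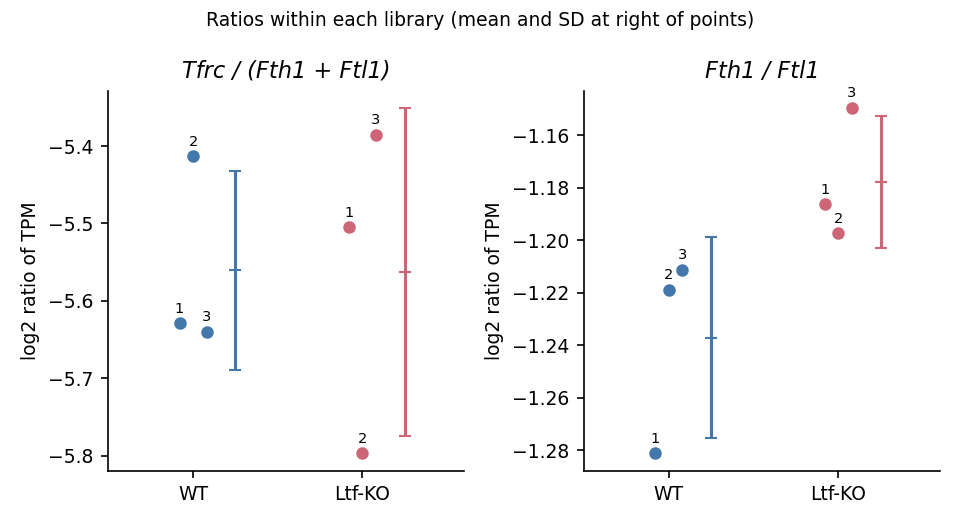
Log2 ratio of TPM within each library for *Tfrc* over summed ferritin (left) and for *Fth1* over *Ftl1* (right), with 1 numbered point per replicate and the mean with its SD beside the points. The left groups overlapped, and the right groups did not, with WT between -1.28 and -1.21 and *Ltf*-KO between -1.20 and -1.15.

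*Slc40a1* (ENSMUSG00000025993) codes for ferroportin, the exporter of iron from cells. It was at 0.92, 1.10 and 0.77 TPM in WT SCs and at 0.99, 0.78 and 0.49 TPM in *Ltf*-KO SCs. *Ltf*-KO replicate 3 was the lowest and the groups overlapped. The mean of 0.842 TPM was under the filter, so the gene was not tested.

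*Ireb2* (ENSMUSG00000032293) codes for iron regulatory protein 2, which binds iron-responsive elements and is degraded when iron is plentiful. It was at 24.0, 26.1 and 25.2 TPM in WT SCs and at 25.0, 23.4 and 26.5 TPM in *Ltf*-KO SCs. The lowest and the highest value both came from *Ltf*-KO libraries. The log2 fold change was -0.0089 (standard error 0.063, 95% confidence interval -0.16 to 0.14, limma adjusted p = 0.999). *Ireb2* is regulated as a protein, which these RNA values do not measure.

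Ordered by mean level, the genes ran from *Ftl1* at 5023 TPM, the gene of rank 20 in the table, and *Fth1* at 2174 TPM, of rank 71, to *Tfrc* at 152 TPM, of rank 901. *Ireb2* at 25.0 TPM, *Slc11a2* at 23.6 TPM and *Steap3* at 18.0 TPM came next. *Trf* at 1.98 TPM, *Slc40a1*, *Ltf* at 0.035 TPM and *Meltf* at 0.01 TPM ended the order. Neighbours in this order had ranges over the 6 libraries that did not meet, except *Ireb2* and *Slc11a2*, where *Ireb2* was higher in 5 of 6 libraries, and *Ltf* and *Meltf*, where *Ltf* was higher in 4. Transcripts of ferritin were thus abundant, receptor and reductase transcripts were at intermediate levels, and those of the exporter and of lactoferrin were scarce.

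By limma, 0 of the 7 genes tested had an adjusted p under 0.05, as did 0 of 12956 over the whole table (0%). At an unadjusted p under 0.05 the counts were 0 of 7 and 490 of 12956 (3.78%), of which 260 (2.01%) were higher and 230 (1.78%) lower in *Ltf*-KO SCs. The larger share was lower with quantile normalization (60.04%) and with median-of-ratios scaling (55.8%). With 1 library left out, the adjusted count over the whole table was 0 to 6, and 0 of the 7 in each case. The median log2 fold change of the 7 genes was -0.0089, with 3 above 0 and 4 below, and that of all genes tested was 0.011. The median size of the change, without its sign, was 0.028 for the 7 genes and 0.058 for all genes tested. These sizes were not matched for level, and low genes varied more between libraries. The median coefficient of variation was 22.1% for genes at a level like that of *Trf* and 4.14% for *Tfrc*. The confidence intervals bound the difference at 0.28 or less in size on the log2 scale for *Tfrc*, *Steap3*, *Slc11a2*, *Fth1*, *Ftl1* and *Ireb2*.

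The genes with a pattern most like that of *Tfrc* over the 6 libraries were sought among the 1417 tested genes within 1 log2 unit of its mean, by the root mean square difference of centred log2(TPM + 1). They were *Trip12*, a ubiquitin ligase, with a difference of 0.018, *Ipo7*, an importin, with 0.019, and *Pip4p2*, a phosphoinositide phosphatase, with 0.020, where the median over these genes was 0.077. *Ipo7* was at 160, 176 and 172 TPM in WT and at 176, 164 and 169 TPM in *Ltf*-KO SCs, lowest in WT replicate 1 and *Ltf*-KO replicate 2, as *Tfrc* was, and its log2 fold change turned from 0.0018 to -0.0085 with median-of-ratios scaling.

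A wider list of 83 iron and heme genes was read from the same fit. Of these, 68 were tested, 3 were at 0 in all libraries, and 0 had a limma adjusted p under 0.05. At an unadjusted p under 0.05, 1 was higher and 5 were lower in *Ltf*-KO SCs, or 6 of 68 beside 3.78% of all genes tested (2.01% higher and 1.78% lower). Without WT replicate 1, and also without WT replicate 3, 2 were higher and 2 lower, in place of 1 and 5. Without WT replicate 2 the count was 4, all lower. It was 1 higher and 2 lower without *Ltf*-KO replicate 1 and also without *Ltf*-KO replicate 3, and 1 higher and 7 lower without *Ltf*-KO replicate 2. With the replicate number as a block it was 2, and with either other scaling it was 5, all lower in each case. The groups did not overlap for 8 of the 68, with 4 higher and 4 lower, beside 8.46% of all genes tested. The median log2 fold change was -0.0046, and the median size was 0.055, close to the 0.058 of all genes tested.

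Uptake genes outside the first 10 were led by *Snx3*, a sorting nexin that recycles the transferrin receptor, at 138, 137 and 133 TPM in WT and at 144, 144 and 132 TPM in *Ltf*-KO SCs. *Slc39a14*, a transporter that can take up iron not bound to transferrin, was at 52.3, 51.8 and 48.4 TPM in WT and at 46.8, 51.4 and 45.9 TPM in *Ltf*-KO SCs. The groups overlapped for both. Of the 15 genes on this list, 10 were tested and 0 had an unadjusted p under 0.05.

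The iron chaperones *Pcbp2* and *Pcbp1*, RNA-binding proteins that also deliver iron to ferritin, were at 578 to 633 TPM and at 277 to 284 TPM over the 6 libraries. Mitochondrial ferritin, *Ftmt*, was at 0 in all libraries. Of the 4 storage genes 3 were tested, and 0 had an unadjusted p under 0.05.

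Of the 10 genes of export and systemic control, 5 were tested. *Hamp* and *Hamp2*, the hepcidin genes of the liver, were at 0 in all libraries. *Neo1*, a receptor for hemojuvelin, was at 24.8 to 30.6 TPM. *Hjv*, hemojuvelin itself, which skeletal muscle is known to make, was at 4.15, 6.00 and 3.03 TPM in WT and at 4.53, 4.48 and 6.80 TPM in *Ltf*-KO SCs. It was highest in *Ltf*-KO replicate 3 and WT replicate 2, the libraries with the most differentiation markers. That match was seen with the values in view, and the part of differentiation in the *Hjv* values was not tested. No gene on this list had an unadjusted p under 0.05.

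*Aco1* is the aconitase that serves as iron regulatory protein 1 when it lacks its iron-sulfur cluster. It was at 29.4, 30.9 and 31.4 TPM in WT and at 29.9, 31.3 and 28.0 TPM in *Ltf*-KO SCs, so the groups overlapped. Its log2 fold change was -0.037 (standard error 0.057, limma adjusted p = 0.999), and 0 of 5 tested genes on this list had an unadjusted p under 0.05.

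Among 20 heme genes 18 were tested, and the 2 at an unadjusted p under 0.05 were both lower in *Ltf*-KO SCs, beside 1.78% of all genes tested that were lower at that p. *Ppox*, an enzyme of the last steps of heme synthesis in mitochondria, was at 15.7, 16.1 and 14.7 TPM in WT and at 12.3, 13.2 and 13.8 TPM in *Ltf*-KO SCs. *Abcb6*, a porphyrin transporter, was at 12.5, 12.8 and 14.3 TPM in WT and at 10.4, 10.7 and 11.9 TPM in *Ltf*-KO SCs. For both, every *Ltf*-KO library was below every WT library, as for 483 of all 12956 genes tested. The log2 fold change was -0.23 (standard error 0.066, limma adjusted p = 0.999) for *Ppox* and -0.24 (standard error 0.078, limma adjusted p = 0.999) for *Abcb6*.

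*Alas1*, the rate-limiting enzyme of heme synthesis outside red cells, was at 76.0, 74.9 and 83.0 TPM in WT and at 64.3, 77.6 and 70.0 TPM in *Ltf*-KO SCs, with overlapping groups. *Flvcr1*, a heme exporter, was chosen with its values already seen, as its *Ltf*-KO libraries were all higher. It was at 11.8, 11.2 and 11.4 TPM in WT and at 13.1, 12.5 and 12.1 TPM in *Ltf*-KO SCs. Groups were so separated, with *Ltf*-KO higher, for 4.73% of all genes tested.

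The list of mitochondrial iron and iron-sulfur cluster genes had all 27 genes tested, of which 1 was higher and 3 were lower at an unadjusted p under 0.05, beside 2.01% higher and 1.78% lower of all genes tested. *Ciapin1*, of the cytosolic cluster assembly, was at 61.6, 61.0 and 63.7 TPM in WT and at 54.4, 59.4 and 57.7 TPM in *Ltf*-KO SCs. Every *Ltf*-KO library was below every WT library, with a difference of -0.12 in log2(TPM + 1), a standard error of 0.047 and an adjusted p of 0.999 from limma. Groups were so separated, with *Ltf*-KO lower, for 483 of all 12956 genes tested.

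*Ciao3*, a partner in the same cytosolic pathway, was at 26.4, 20.3 and 22.5 TPM in WT and at 15.2, 20.3 and 17.3 TPM in *Ltf*-KO SCs. WT replicate 2 and *Ltf*-KO replicate 2 were at nearly the same level, so the groups just met. Its log2 fold change of -0.37 (standard error 0.13, 95% confidence interval -0.68 to -0.061, limma adjusted p = 0.999) was the lowest of the 68 genes.

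*Isca2*, of the mitochondrial assembly of 4Fe-4S clusters, was the gene higher in *Ltf*-KO SCs. It was at 46.6, 40.6 and 47.04 TPM in WT and at 52.3, 49.8 and 48.9 TPM in *Ltf*-KO SCs, a difference of 0.17 in log2(TPM + 1) with a standard error of 0.067 and an adjusted p of 0.999 from limma. Without WT replicate 2 the difference was 0.10, and under quantile normalization or median-of-ratios scaling *Isca2* no longer had an unadjusted p under 0.05. The most abundant genes of the list were *Hspa9*, a mitochondrial chaperone, at 434 to 451 TPM, and *Nfu1*, a cluster carrier, at 170 to 226 TPM, and the groups overlapped for both.

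**Figure D5:**
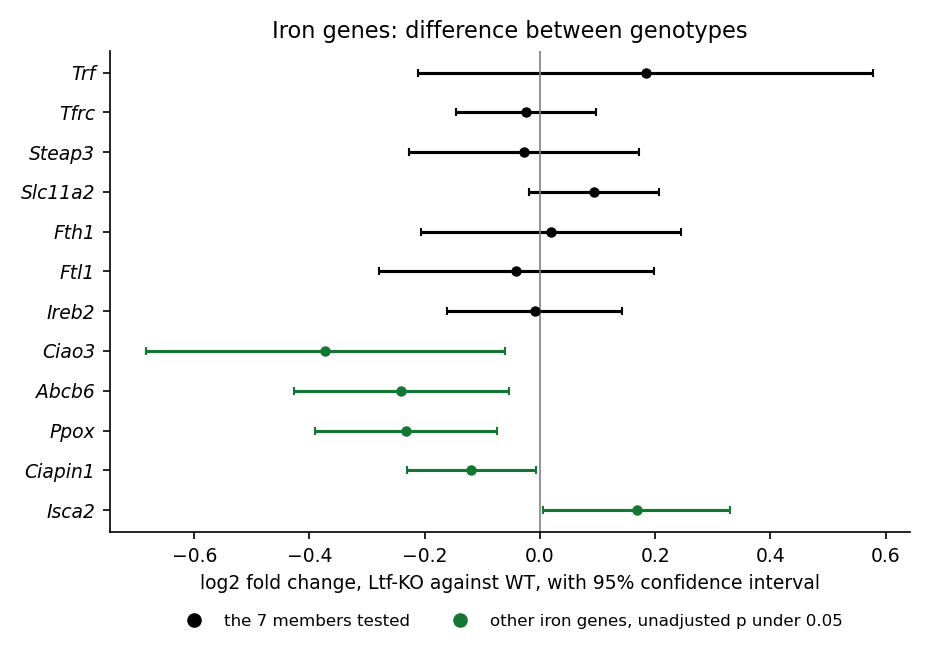
Log2 fold change of *Ltf*-KO against WT with its 95% confidence interval from limma, on the log2(TPM + 1) scale, for the 7 genes tested (black) and for 5 of the 6 genes of the wider iron list at an unadjusted p under 0.05 (green), which were picked by that p. The intervals of the 7 all span 0, and those of the 5 do not, while the adjusted p was 0.999 for all 12.

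The sorted identity was checked against markers. The 10 satellite cell and myoblast markers summed to between 1993 and 2070 TPM in the 6 libraries, led by *Myod1* at a mean of 779 TPM, and *Pax7* was at 36.6 to 43.3 TPM. *Calcr*, a marker of quiescent satellite cells, was nearly absent, at 0.03, 0.07 and 0.04 TPM in WT and at 0 in all *Ltf*-KO libraries, and was under the level needed for a test. *Pax7* and *Calcr* were picked from this list with their values in view.

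Markers of other cell types were read in the same libraries. The 8 macrophage markers summed to 9.96 to 18.1 TPM, led by *Cd14* at a mean of 7.29 TPM, with 5 of them under 1 TPM, in cells sorted without CD11b. *Lyz2* was at 7.22, 2.31 and 0.38 TPM in WT and at 1.11, 0.95 and 0.38 TPM in *Ltf*-KO libraries. All 3 macrophage markers tested had a log2 fold change below 0, and 0 had an unadjusted p under 0.05 by limma. Over all 12956 genes tested, 7220 were above 0 and 5736 below. For *Cd68* every *Ltf*-KO library was below every WT library, as for 483 of all 12956 genes tested. Groups did not overlap in either direction for 8.46% of all genes tested. The 8 erythroid genes, of interest since red cell precursors take up much iron, summed to 23.8 to 29.4 TPM, led by the globin *Hba-a2* at a mean of 8.72 TPM. Fibroblast markers summed to 102 to 134 TPM, nearly all from *Col3a1* at 96.7 TPM, so the sum says little of the other members. Of these, *Col1a1* was at 3.73, 4.98 and 5.91 TPM in WT and at 6.91, 9.32 and 5.05 TPM in *Ltf*-KO libraries. All 5 fibroblast markers tested had a log2 fold change above 0, with a median of 0.19, and 0 had an unadjusted p under 0.05 by limma. The 6 differentiation markers were also all above 0, with a median of 0.13. Pericyte markers summed to 33.6 to 43.5 TPM, nearly all from *Cspg4* at 35.0 TPM. Cultured myoblasts can express both *Col3a1* and *Cspg4*. The 4 hepatocyte markers summed to 5.20 to 7.99 TPM. All 5 of these sums overlapped between genotypes.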

How the data were processed

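The submitters' processing notes name the GRCm39 build, and the aligner and counting tool are not given in the sources used here. The authors deposited TPM values for 55416 genes, and the unit was taken from the column sums of 993650 to 994356. TPM keeps no depth, so precision was judged from the spread between libraries and no count test was run. Libraries were grouped by their labels. The 12956 genes whose mean reached 1 TPM were fitted on log2(TPM + 1) with limma 3.58.1 in R 4.3.3 (lmFit, eBayes with a trend), genotype being the only term, two-sided, with Benjamini-Hochberg adjustment and a threshold of 0.05. Ratios were compared by exact permutation of the 6 libraries. The genes and lists were chosen with earlier results of these data known. Named genes were the 10 genes, the 2 most abundant of each wider list and those at an unadjusted p under 0.05, the most abundant of each marker list, and the 3 most like *Tfrc*, and some of these are not reported. Marker genes named outside this rule were picked with their values in view. The fit was tested on simulated data with a shift larger than any log2 fold change of the iron genes tested. That simulation therefore does not show whether changes of their size would be found. UTRs came from GENCODE M21.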

Additional observations from a re-analysis of the deposited data

How the results depend on the processing

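With a pseudocount of 0.1, no filter, a mean of at least 10 TPM, quantile normalization, median-of-ratios scaling or each library left out, 0 of the iron genes tested (7 of the 10, 6 at 10 TPM and 10 with no filter) and 0 of those tested on the wider list had a limma adjusted p under 0.05, and the lowest adjusted p of a gene under the naming rule was 0.946. Over all genes the count was 0, and 0 to 6 with 1 library left out (6 without WT replicate 2). At an unadjusted p under 0.05, 490 genes became 890 with no filter and 281 at 10 TPM, as more or fewer were tested, and the share lower in *Ltf*-KO went from 46.9% to 60.04% with quantile normalization and 55.8% with median-of-ratios scaling, where the cause was not tested. The wider list's 6 genes became 5, all lower, under either scaling, and 3 without *Ltf*-KO replicate 1 or 3. Its count of 8 without overlap became 11 and 10, and the groups of *Slc11a2* did not overlap under either scaling.

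Same-numbered libraries did not deviate together (correlations of -0.041, -0.058 and -0.088), so the numbers give no pairing. With the replicate block, 0 genes had an adjusted p under 0.05, 380 had an unadjusted p under 0.05, as did 2 of the wider list, and the mean same-number differences of the ratios were -0.0016 and 0.059.

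With 1 library left out, the *Tfrc* to ferritin difference ran from -0.0902 to 0.12 (0.072 without WT replicate 2, 0.12 without *Ltf*-KO replicate 2) and that of *Fth1* to *Ftl1* from 0.037 to 0.072. Of 38 tested genes under the naming rule, 20 kept their sign under every alternative. In these ranges over the libraries left out, the sign of the log2 fold change turned: *Tfrc* -0.068 to 0.0038, *Steap3* -0.099 to 0.019, *Fth1* -0.064 to 0.094, *Ftl1* -0.13 to 0.048, *Ireb2* -0.052 to 0.036, *Pcbp2* -0.0017 to 0.065, *Neo1* -0.087 to 0.059, *Aco1* -0.073 to 0.0044, *Hmox1* -0.23 to 0.31, *Hspa9* -0.017 to 0.011, *Myod1* -0.026 to 0.038, *S100a9* -0.11 to 0.55, *Cd14* -0.087 to 0.081, *Hba-a2* -0.051 to 0.14, *Col3a1* -0.022 to 0.17, *Cspg4* -0.0092 to 0.19, *Alb* -0.095 to 0.12 and *Ipo7* -0.037 to 0.029. *Myod1* was at -0.0029 with quantile normalization and -0.0067 with median-of-ratios scaling, *Alb* at -0.017 with the first and *Ipo7* at -0.0085 with the second. The stem condition, added after seeing the data, took the motif count from 7 genes to 5.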
